A study of Mus musculus with 11 samples.

Results

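The genes described here are 9 transcription factor genes of the glutamatergic neuron lineage: the T-box genes Eomes (whose protein is called Tbr2) and Tbr1, and the basic helix-loop-helix (bHLH) genes Neurog2, Neurod1, Neurod4, Neurod2, Neurod6, Nhlh1 and Nhlh2. They were taken by symbol from the probe sets annotated to a single gene. Each of the 9 had 1 such probe set, and all 9 passed the filter on dim probe sets, out of 16527 genes tested and 19938 genes with a single-gene probe set. Their expression was measured in GFP-positive cells that were sorted from the microdissected dentate gyrus of mice at postnatal day 35, on 11 Affymetrix Mouse Gene 1.0 ST arrays, after amplification of the RNA. PomcGFP mice (2 arrays) carry a GFP transgene of Pomc, the pro-opiomelanocortin gene. In kiTbr2GFP mice (3 arrays) GFP is knocked into Eomes, and in tgTbr2GFP mice (3 arrays) it comes from an Eomes BAC transgene; both are called Tbr2 lines here. NesGFP mice (3 arrays) carry a GFP transgene of Nes, which encodes the filament protein nestin. All 4 lines carry a GFP reporter, and no unsorted or GFP-negative cells were among the arrays. The sources do not say how far the knock-in or the BAC changes what the Eomes probe set reads, so Eomes in the Tbr2 lines is the signal of that probe set and not a count of intact alleles. Values are log2 RMA values, in which 1 unit is a doubling, and levels of different genes are not set against each other because probe sets differ in brightness. Nothing in the labels says which arrays came from separate animals, so p-values here measure only how far the arrays of a line spread, and part of that spread may be technical.

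In the developing cortex and in the adult dentate gyrus, radial stem cells pass through dividing intermediate progenitors to postmitotic neurons, and these factors are known to follow each other along that path. Neurog2 starts the neuronal programme, Eomes marks intermediate progenitors, and Neurod1 and then Tbr1 mark cells that become glutamatergic neurons. The bHLH factors bind DNA at E boxes as pairs with E proteins (Tcf3, Tcf4 and Tcf12). Id proteins block this pairing, and many Hes and Hey proteins, though not all, are Notch targets that repress proneural genes.

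Eomes, Neurog2, Neurod4 and Nhlh1 were lower in PomcGFP than in either Tbr2 line, and the 250 bases before the annotated start of each are printed here because these 4 genes moved together. The sequences are from RefSeq on mouse build GRCm38.p6, 5′ to 3′ on the gene's strand. Capitals mark the E box CANNTG, which reads the same on both strands, and the T-box core AGGTGT or its reverse complement ACACCT. Eomes was read from chr9:118477939-118478188 on the plus strand, Neurog2 from chr3:127632886-127633135 on the plus strand, Neurod4 from chr10:130280255-130280504 on the minus strand and Nhlh1 from chr1:172057597-172057846 on the minus strand. The starts are those of the RefSeq promoter table, and the start used for Neurog2 lies inside the annotated span of the gene, given further on, so its window overlaps that span.
Eomes: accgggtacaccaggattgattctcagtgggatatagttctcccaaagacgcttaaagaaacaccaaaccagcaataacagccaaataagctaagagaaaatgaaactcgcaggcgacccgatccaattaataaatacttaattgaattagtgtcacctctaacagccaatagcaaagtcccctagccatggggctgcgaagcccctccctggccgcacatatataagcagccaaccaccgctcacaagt
Neurog2: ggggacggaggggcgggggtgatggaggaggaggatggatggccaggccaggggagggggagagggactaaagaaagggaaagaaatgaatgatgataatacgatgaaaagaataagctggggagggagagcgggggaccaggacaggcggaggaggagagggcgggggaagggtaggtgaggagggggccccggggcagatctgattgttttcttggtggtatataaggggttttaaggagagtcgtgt
Neurod4: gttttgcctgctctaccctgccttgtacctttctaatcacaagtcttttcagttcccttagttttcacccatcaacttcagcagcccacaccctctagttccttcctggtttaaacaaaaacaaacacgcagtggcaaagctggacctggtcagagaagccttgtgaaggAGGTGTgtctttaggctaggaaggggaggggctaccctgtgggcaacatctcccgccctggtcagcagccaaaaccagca
Nhlh1: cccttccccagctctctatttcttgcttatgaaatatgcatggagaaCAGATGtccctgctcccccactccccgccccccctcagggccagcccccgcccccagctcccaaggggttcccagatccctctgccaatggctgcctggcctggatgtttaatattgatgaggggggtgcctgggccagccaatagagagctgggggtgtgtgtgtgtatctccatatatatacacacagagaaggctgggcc

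The windows of Eomes and Neurog2 held neither motif, so no letter is in capitals there. That of Neurod4 held AGGTGT 80 bases before the start, and that of Nhlh1 held an E box of the form CAGATG 203 bases before it. All 9 genes had windows, 10 in all because Neurod4 has a second annotated start, whose window overlaps the first and holds the same AGGTGT. An E box was found in 6 of the 10 windows, against 66.2% of 32851 mouse windows of that length, so the share of the members was near that of all genes. The form CAGATG (or CATCTG), which is 1 kind of CANNTG, was found in 3 of 10 windows, those of Neurod2, Nhlh1 and Nhlh2, against 14.4% of all windows. CAGCTG, another kind, was in 0 of 10 windows, against 13.0%. AGGTGT was found in 3 of 10 windows, those of Neurod4 and that of Neurod6, against 11.8%. A match describes letters in a window and is no evidence of binding.

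Across the lines, limma's moderated F test passed 8 of the 9 genes after Benjamini-Hochberg adjustment over all 16527 genes tested, of which 43.4% passed. The exception was Neurod2 (adjusted p = 0.332). Against NesGFP, 8 of 9 were higher in kiTbr2GFP, where 45.2% of all genes passed (18.2% higher and 27.0% lower), and 8 of 9 were higher in tgTbr2GFP, where 41.6% passed (15.8% higher and 25.8% lower). These comparisons share the NesGFP arrays. Against NesGFP, PomcGFP had 3 members higher and 2 lower, and 39.9% of all genes passed (15.9% higher and 24.0% lower). Between lines outside NesGFP fewer genes passed. In PomcGFP 0 members were higher and 4 lower than in kiTbr2GFP, where 4.88% of all genes passed (2.90% higher and 1.98% lower), and these 4 passed whichever array was left out. Against tgTbr2GFP, PomcGFP had 0 members higher and 4 lower, where 1.37% of all genes passed (0.545% higher and 0.823% lower), and 1 to 4 members passed when 1 array was left out. Between kiTbr2GFP and tgTbr2GFP 1 member was higher and 0 lower, where 1.12% of all genes passed (0.436% higher and 0.684% lower). The arrays of the compared lines did not overlap for 8 of 9 members between kiTbr2GFP and NesGFP (51.7% of all genes), 8 between tgTbr2GFP and NesGFP (48.1%), 7 between PomcGFP and NesGFP (58.9%), 9 between PomcGFP and kiTbr2GFP (33.8%), 8 between PomcGFP and tgTbr2GFP (28.8%) and 4 between kiTbr2GFP and tgTbr2GFP (17.2%). The median log2 difference of the 9 genes was 1.06 in kiTbr2GFP and 1.22 in tgTbr2GFP against NesGFP, where the medians of all genes were -0.01 and -0.03. It was -0.36 in PomcGFP against kiTbr2GFP and -0.49 against tgTbr2GFP, where the medians of all genes were 0.01 and 0.03.

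**Figure D1:**
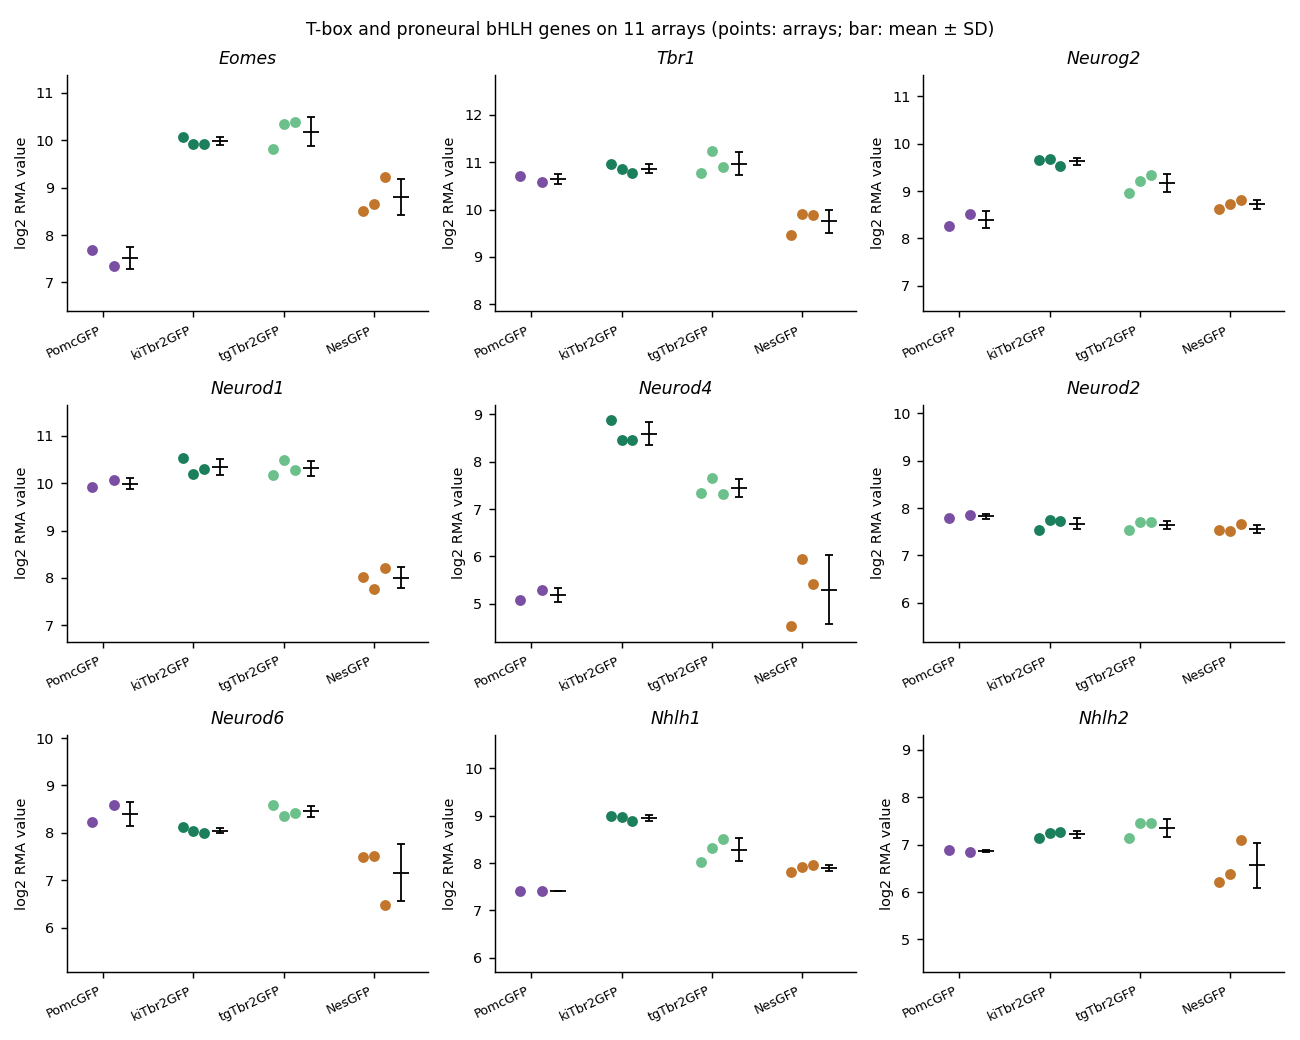
Log2 RMA values (y axis, 1 panel per gene, all panels spanning 5 log2 units) of the 9 genes in PomcGFP, kiTbr2GFP, tgTbr2GFP and NesGFP. Points are arrays and the bar beside them is the mean ± SD (n = 2 for PomcGFP and n = 3 for each other line). Eomes, Neurog2, Neurod4 and Nhlh1 stand high in the Tbr2 lines and low in PomcGFP, Neurod1, Tbr1 and Neurod6 stand low in NesGFP alone, and Neurod2 lies within 7.51 to 7.86 on all arrays.

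The arrays themselves fell into NesGFP and the rest. Across the genes tested, NesGFP arrays correlated with those of other lines at r of 0.766 to 0.839, while arrays of different other lines correlated at 0.933 to 0.973. Markers of further cell types moved with this split. All 9 endothelial genes tested were lower in each of the other lines than in NesGFP. Of all genes, 24.0% were lower in PomcGFP, 27.0% in kiTbr2GFP and 25.8% in tgTbr2GFP. The mean level of the endothelial list was 6.81 to 7.17 in PomcGFP, 6.13 to 6.41 in kiTbr2GFP and 6.24 to 7.16 in tgTbr2GFP, against 9.75 to 9.94 in NesGFP. The list of 8 oligodendrocyte genes stood at 9.01 to 9.06, 7.48 to 8.11 and 7.47 to 9.23 in the same order, against 10.74 to 10.89 in NesGFP, and that of 10 astrocyte genes at 8.62 to 8.74, 7.82 to 8.10 and 8.37 to 9.07, against 10.16 to 10.30. The NesGFP arrays thus held high signal of vessel, oligodendrocyte and astrocyte genes beside stem cell genes, and the part of this in the differences from NesGFP was not tested. In sorted pools of this kind, fewer cells that express a gene and less RNA per cell cannot be told apart. The tgTbr2GFP arrays also differed among themselves in sex-linked genes: Xist, expressed from the inactive X chromosome, stood at 6.40 on the first array and at 11.44 and 11.27 on the second and the third, and the Y-linked Eif2s3y at 9.76, 3.75 and 8.24.

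The reporter genes were a check of the labels. Nes had a mean of 7.35 in NesGFP, against 6.02 in PomcGFP, 6.15 in kiTbr2GFP and 5.94 in tgTbr2GFP. Pomc had a mean of 7.25 in PomcGFP, little above the 6.95 of NesGFP and the 6.77 of each Tbr2 line. Eomes is the gene that the Tbr2 lines report. Eomes (chr9:118478186-118486132, GRCm38.p6) had log2 values of 7.68 and 7.35 on the PomcGFP arrays. It had 10.07, 9.93 and 9.93 in kiTbr2GFP, 9.83, 10.34 and 10.39 in tgTbr2GFP, and 8.52, 8.65 and 9.23 in NesGFP. All 6 Tbr2 arrays lay above all NesGFP arrays, and these above both PomcGFP arrays. The order was thus tgTbr2GFP and kiTbr2GFP, then NesGFP, then PomcGFP, and the Tbr2 lines did not differ beyond their spread (difference -0.21 in kiTbr2GFP minus tgTbr2GFP, 95% interval -0.64 to 0.23). Eomes fell 5.51-fold in PomcGFP against kiTbr2GFP (log2 difference -2.46 ± 0.22 SE, limma adjusted p = 0.000106) and 6.35-fold against tgTbr2GFP (-2.67 ± 0.22 SE, adjusted p = 0.000414). Of all genes tested, 0.182% and 0.0182% differed by more in those comparisons. In the Tbr2 lines it rose by 1.18 ± 0.20 (SE; limma adjusted p = 0.000553) and 1.38 ± 0.20 (SE; adjusted p = 0.000194) over NesGFP. PomcGFP stood below NesGFP by a log2 difference of -1.28 ± 0.22 (SE; adjusted p = 0.000839). Eomes lay at percentiles 64.9 and 56.9 of the probe sets on the PomcGFP arrays, and at 77.7 to 87.1 on the NesGFP arrays.

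Tbr1, the T-box factor of postmitotic glutamatergic neurons (chr2:61802863-61814114), stood high in PomcGFP as well as in the Tbr2 lines. It had log2 values of 10.71 and 10.58 in PomcGFP, 10.96, 10.85 and 10.78 in kiTbr2GFP, 10.77, 11.24 and 10.90 in tgTbr2GFP, and 9.46, 9.90 and 9.88 in NesGFP. All 8 arrays of the other lines lay above the 3 NesGFP arrays. Tbr1 was higher than in NesGFP by 0.90 ± 0.17 (SE) in PomcGFP (limma adjusted p = 0.00147), by 1.12 ± 0.15 in kiTbr2GFP (adjusted p = 0.000113) and by 1.22 ± 0.15 in tgTbr2GFP (adjusted p = 6.59e-05). Its differences among the other lines did not pass: PomcGFP minus kiTbr2GFP was -0.22 (95% interval -0.59 to 0.16), PomcGFP minus tgTbr2GFP was -0.32 (-0.70 to 0.05) and kiTbr2GFP minus tgTbr2GFP was -0.11 (-0.44 to 0.23). Both PomcGFP arrays nonetheless lay below all 6 Tbr2 arrays.

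Neurog2, the proneural factor that starts glutamatergic differentiation (chr3:127632733-127635636), was highest in kiTbr2GFP. Its log2 values were 8.27 and 8.52 in PomcGFP, 9.67, 9.67 and 9.54 in kiTbr2GFP, 8.96, 9.21 and 9.34 in tgTbr2GFP, and 8.62, 8.72 and 8.82 in NesGFP. No arrays overlapped between any pair of lines, which gave the order kiTbr2GFP, tgTbr2GFP, NesGFP, PomcGFP. Neurog2 was lower in PomcGFP than in kiTbr2GFP by 2.35-fold (log2 difference -1.23 ± 0.14 SE, limma adjusted p = 0.000456). It was lower than in tgTbr2GFP by 1.71-fold (-0.78 ± 0.14 SE, adjusted p = 0.0205), a call that ended without either PomcGFP array or without the second or the third tgTbr2GFP array (adjusted p = 0.0837 to 0.25) and in a fit of these lines alone (adjusted p = 0.0862). It rose over NesGFP by 0.90 ± 0.13 (SE) in kiTbr2GFP (adjusted p = 0.000127) and by 0.45 ± 0.13 in tgTbr2GFP (adjusted p = 0.0132). That tgTbr2GFP call ended without the third tgTbr2GFP array (adjusted p = 0.0577). The neighbours in the order did not differ past the test: kiTbr2GFP minus tgTbr2GFP was 0.46 (95% interval 0.18 to 0.73, adjusted p = 0.143) and PomcGFP minus NesGFP was -0.33 (-0.63 to -0.02, adjusted p = 0.0860), which passed with arrays centred on their medians (-0.42, adjusted p = 0.0267).

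Among the NeuroD genes, Neurod1 and Neurod4 had different orders of lines. Neurod1 (chr2:79452637-79456636), which granule neurons need for their survival and maturation, had log2 values of 9.92 and 10.07 in PomcGFP, 10.54, 10.19 and 10.29 in kiTbr2GFP, 10.17, 10.49 and 10.29 in tgTbr2GFP, and 8.01, 7.77 and 8.22 in NesGFP. Every array outside NesGFP lay above every NesGFP array. The rise over NesGFP was 3.97-fold in PomcGFP (log2 difference 1.99 ± 0.16 SE, limma adjusted p = 4.39e-06), 5.06-fold in kiTbr2GFP (2.34 ± 0.14 SE, adjusted p = 3.83e-07) and 4.97-fold in tgTbr2GFP (2.31 ± 0.14 SE, adjusted p = 6.15e-07). In the Tbr2 lines 2.46% and 1.72% of all genes differed from NesGFP by more. PomcGFP stood little below the Tbr2 lines, at -0.35 against kiTbr2GFP (95% interval -0.70 to 0.0045) and -0.33 against tgTbr2GFP (-0.68 to 0.03), and did not pass.

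Neurod4 (chr10:130268152-130280254), a bHLH factor that promotes neuronal differentiation, was instead high in the Tbr2 lines alone. Its log2 values were 5.09 and 5.30 in PomcGFP, 8.88, 8.45 and 8.46 in kiTbr2GFP, 7.35, 7.66 and 7.32 in tgTbr2GFP, and 4.53, 5.96 and 5.42 in NesGFP. Both PomcGFP arrays and the first and the third NesGFP arrays lay below the 25th percentile of their array, so the fitted differences from these lines depend on signal too dim to size. Taking that percentile (a mean of 6.14 on the PomcGFP arrays) as the floor, Neurod4 was at least 5.48-fold lower in PomcGFP than in kiTbr2GFP (fitted log2 difference -3.40 ± 0.32 SE, limma adjusted p = 0.000129) and at least 2.47-fold lower than in tgTbr2GFP (-2.25 ± 0.32 SE, adjusted p = 0.00686). The call against tgTbr2GFP ended without either PomcGFP array (adjusted p = 0.0877 and 0.0608). Against NesGFP, Neurod4 was higher in kiTbr2GFP (fitted log2 difference 3.29 ± 0.29 SE, adjusted p = 3.90e-06) and in tgTbr2GFP (2.14 ± 0.29 SE, adjusted p = 0.000111). These 2 fitted sizes rest on the dim NesGFP signal, and no floor was applied to them. PomcGFP and NesGFP overlapped and did not differ past the test (-0.11, 95% interval -0.81 to 0.60). The 3 kiTbr2GFP arrays lay above the 3 tgTbr2GFP arrays by a mean of 1.15 (95% interval 0.52 to 1.78), which did not pass (adjusted p = 0.10) but passed in a fit of these lines alone (adjusted p = 0.0138) and without the first or second NesGFP array (adjusted p = 0.0124 and 0.0320).

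Neurod6 (chr6:55677818-55681263), a factor of maturing forebrain pyramidal neurons, followed the pattern of Neurod1 at a smaller size. Its log2 values were 8.22 and 8.59 in PomcGFP, 8.11, 8.04 and 8.0 in kiTbr2GFP, 8.58, 8.36 and 8.42 in tgTbr2GFP, and 7.49, 7.52 and 6.47 in NesGFP. The NesGFP arrays were the low ones, the third by about 1 unit more than the first. Neurod6 rose over NesGFP by 1.24 ± 0.26 (SE) in PomcGFP (limma adjusted p = 0.00301), by 0.89 ± 0.24 in kiTbr2GFP (adjusted p = 0.00963) and by 1.29 ± 0.24 in tgTbr2GFP (adjusted p = 0.000996). Without the third NesGFP array the kiTbr2GFP difference was at its lowest, 0.54, and still passed. Among the lines outside NesGFP, kiTbr2GFP minus tgTbr2GFP was -0.41 (95% interval -0.92 to 0.11) and PomcGFP minus kiTbr2GFP was 0.36 (-0.22 to 0.94).

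Neurod2 (chr11:98325415-98329645), another factor of maturing glutamatergic neurons, passed in none of the 6 comparisons. Its log2 values were 7.79 and 7.86 in PomcGFP, 7.54, 7.76 and 7.72 in kiTbr2GFP, 7.55, 7.70 and 7.70 in tgTbr2GFP, and 7.53, 7.51 and 7.66 in NesGFP. Both PomcGFP arrays lay above the other 9 arrays, by 0.15 to 0.26 on average. The largest of these, PomcGFP minus NesGFP, was 0.26 (95% interval 0.0044 to 0.52, limma adjusted p = 0.0989), and it passed after cyclic loess (0.32, adjusted p = 0.0212). The intervals of kiTbr2GFP and tgTbr2GFP minus NesGFP were -0.12 to 0.34 and -0.15 to 0.31.

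Nhlh1 and Nhlh2 encode closely related bHLH factors of newly formed neurons, and their orders of lines were not the same. Nhlh1 (chr1:172052292-172057596) had log2 values of 7.40 and 7.41 in PomcGFP, 9.0, 8.96 and 8.89 in kiTbr2GFP, 8.02, 8.32 and 8.50 in tgTbr2GFP, and 7.82, 7.91 and 7.95 in NesGFP. As for Neurog2, no arrays overlapped between any pair of lines and the order was kiTbr2GFP, tgTbr2GFP, NesGFP, PomcGFP. In PomcGFP it was lower than in kiTbr2GFP by 2.91-fold (log2 difference -1.54 ± 0.14 SE, limma adjusted p = 0.000102) and lower than in tgTbr2GFP by 1.83-fold (-0.87 ± 0.14 SE, adjusted p = 0.0113). It was also lower than in NesGFP (-0.49 ± 0.14 SE, adjusted p = 0.0158). Nhlh1 was the member that passed between the Tbr2 lines, higher in kiTbr2GFP than in tgTbr2GFP by 0.67 ± 0.12 (SE; adjusted p = 0.0287). Over NesGFP it rose by 1.06 ± 0.12 (SE; adjusted p = 3.79e-05) in kiTbr2GFP and by 0.38 ± 0.12 (SE; adjusted p = 0.0277) in tgTbr2GFP.

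Several of these Nhlh1 calls lay near the threshold and did not hold in every refit, though the differences kept their direction. The call between the Tbr2 lines ended without any of the 3 kiTbr2GFP arrays, either PomcGFP array, or the first or second tgTbr2GFP array (difference 0.54 to 0.70, adjusted p = 0.0521 to 0.121), and in a fit of these lines alone (adjusted p = 0.0510). The call of PomcGFP against tgTbr2GFP ended without either PomcGFP array or the second tgTbr2GFP array (adjusted p = 0.0577 to 0.112) and in a fit of these lines alone (adjusted p = 0.0680). That of PomcGFP against NesGFP ended without either PomcGFP array (adjusted p = 0.0800 and 0.0777) and after cyclic loess (adjusted p = 0.0517), and that of tgTbr2GFP against NesGFP without the first NesGFP, or the second or the third tgTbr2GFP array (adjusted p = 0.0749 to 0.113) and in a fit of these lines alone (adjusted p = 0.0871). The differences of kiTbr2GFP from PomcGFP and from NesGFP passed whichever array was left out.

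Nhlh2 (chr3:102010111-102015492) had log2 values of 6.88 and 6.84 in PomcGFP, 7.14, 7.25 and 7.27 in kiTbr2GFP, 7.14, 7.46 and 7.46 in tgTbr2GFP, and 6.22, 6.38 and 7.10 in NesGFP. The third NesGFP array lay above both PomcGFP arrays, while the 6 Tbr2 arrays lay above all others. The signal of Nhlh2 was rather dim, at percentiles 31.3, 34.7 and 51.3 of the probe sets in NesGFP and 43.0 and 41.9 in PomcGFP. Nhlh2 rose over NesGFP by 0.66 ± 0.20 (SE; limma adjusted p = 0.0174) in kiTbr2GFP and by 0.79 ± 0.20 (SE; adjusted p = 0.00693) in tgTbr2GFP. The kiTbr2GFP call ended without the second or the third kiTbr2GFP array or the first or second NesGFP array (difference 0.48 to 0.64, adjusted p = 0.0512 to 0.0676). PomcGFP did not differ past the test from NesGFP (0.30, 95% interval -0.18 to 0.78), from kiTbr2GFP (-0.36, -0.84 to 0.12) or from tgTbr2GFP (-0.49, -0.97 to -0.01, adjusted p = 0.480). Without the third NesGFP array, PomcGFP minus NesGFP was 0.57 and passed (adjusted p = 0.00745).

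**Figure D2:**
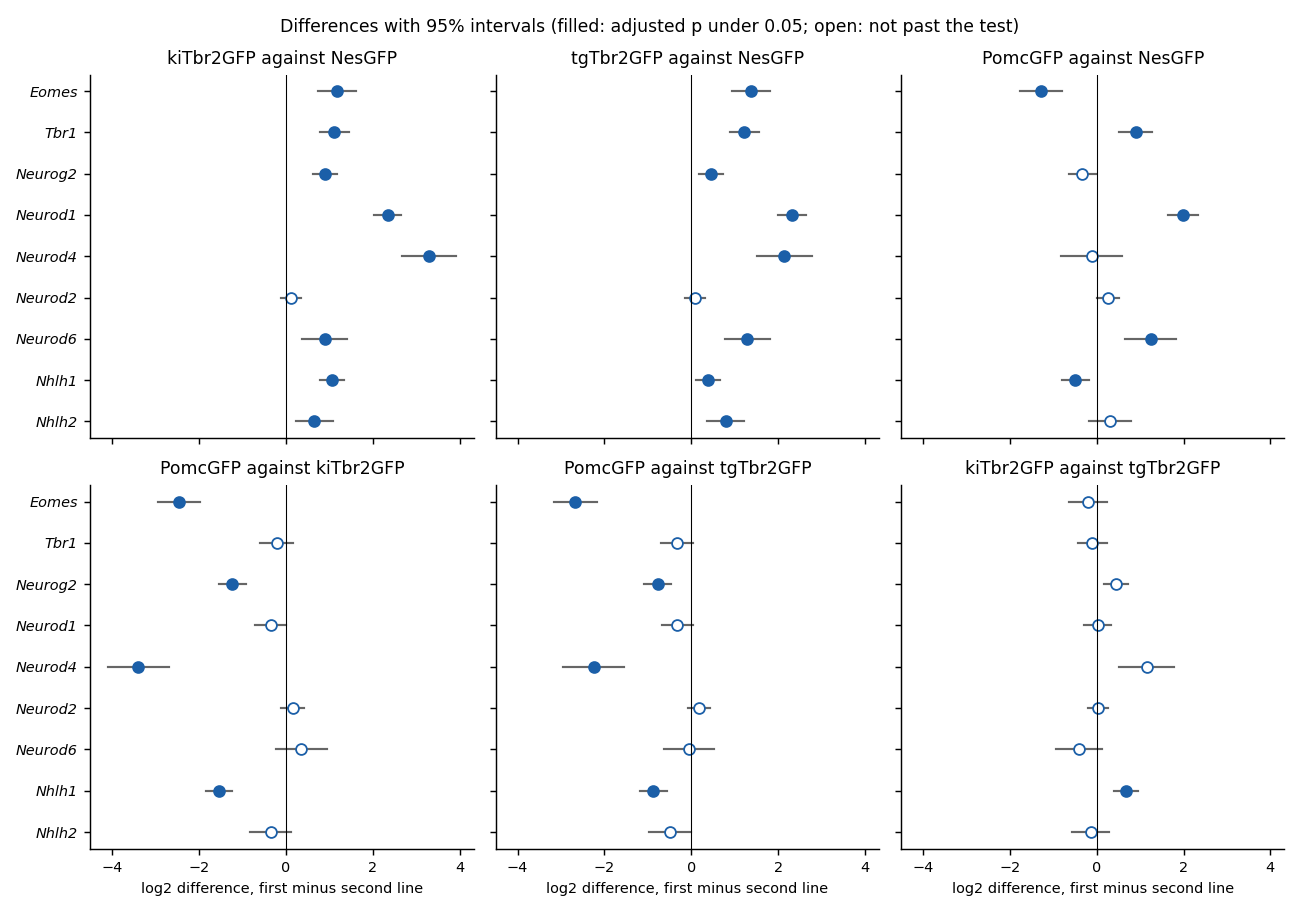
Log2 difference (x axis, first line minus second) of each gene (y axis) in the 6 pairwise comparisons. Points are limma estimates, lines are 95% intervals, and filled points passed at an adjusted p under 0.05. Eomes, Neurog2, Neurod4 and Nhlh1 lie to the left in both comparisons of PomcGFP with a Tbr2 line, at -2.46, -1.23, -3.40 and -1.54 against kiTbr2GFP, while Tbr1, Neurod1, Neurod2, Neurod6 and Nhlh2 have open points there.

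Of the 14 genes that encode E proteins, Id proteins or Hes and Hey proteins, 8 passed in PomcGFP against NesGFP, 9 in kiTbr2GFP and 7 in tgTbr2GFP, beside 39.9%, 45.2% and 41.6% of all genes. Among the E proteins 1 of 3 passed in each line: Tcf4 was higher than in NesGFP by 1.66 in PomcGFP (limma adjusted p = 2.72e-05), 1.84 in kiTbr2GFP (adjusted p = 3.41e-06) and 1.68 in tgTbr2GFP (adjusted p = 8.20e-06). Tcf3 (-0.07, -0.07 and -0.17) and Tcf12 (0.30, 0.52 and 0.46, in the same order) did not pass. All 4 Id genes, Id1 to Id4, were lower in PomcGFP and in kiTbr2GFP than in NesGFP, and 3 of 4 in tgTbr2GFP. Of all genes, 24.0% were lower in PomcGFP, 27.0% in kiTbr2GFP and 25.8% in tgTbr2GFP. Id3 fell by the most, at -2.27 in PomcGFP, -2.82 in kiTbr2GFP and -2.77 in tgTbr2GFP. Id1 was at -0.98, -1.09 and -1.06, Id2 at -0.89, -0.52 and -1.02, and Id4 at -0.74, -0.68 and -0.34, the last of which did not pass (adjusted p = 0.0840). The median of the Id list was -0.93, -0.89 and -1.04, against 0.0050, -0.01 and -0.03 for all genes.

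Of the 7 Hes and Hey genes 3 were lower than in NesGFP in PomcGFP, 4 in kiTbr2GFP and 3 in tgTbr2GFP, and 0 were higher. Of all genes, 24.0%, 27.0% and 25.8% were lower in that order, and 15.9%, 18.2% and 15.8% were higher. Hes1 was at -1.44, -1.29 and -1.23, Hey1 at -1.48, -2.22 and -1.63 and Heyl at -1.02, -1.05 and -1.04 in that order of lines. Hey2 passed in kiTbr2GFP (limma adjusted p = 0.0472), but its values were 5.33 to 5.98 on the PomcGFP and tgTbr2GFP arrays and 5.14 to 5.45 on the kiTbr2GFP arrays, all below the 25th percentile of the array, and 8.87, 6.72 and 5.39 in NesGFP. The third NesGFP array lay within the kiTbr2GFP range, so no size is given for Hey2. Hes5 (-0.10, -0.19 and -0.09), Hes6 (-0.29, -0.09 and -0.29) and Hes7 (-0.13, -0.14 and -0.20) did not pass. In PomcGFP against either Tbr2 line, and between the Tbr2 lines, 0 of the 14 E protein, Id, Hes and Hey genes passed. Of all genes, 4.88% passed in PomcGFP against kiTbr2GFP, 1.37% against tgTbr2GFP and 1.12% between the Tbr2 lines. The count of 0 was near those shares. Hes1, Hey1, Heyl and the Id genes are also expressed in vessel cells and glia, whose markers were high in NesGFP, and the part of those cells was not tested.

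**Figure D3:**
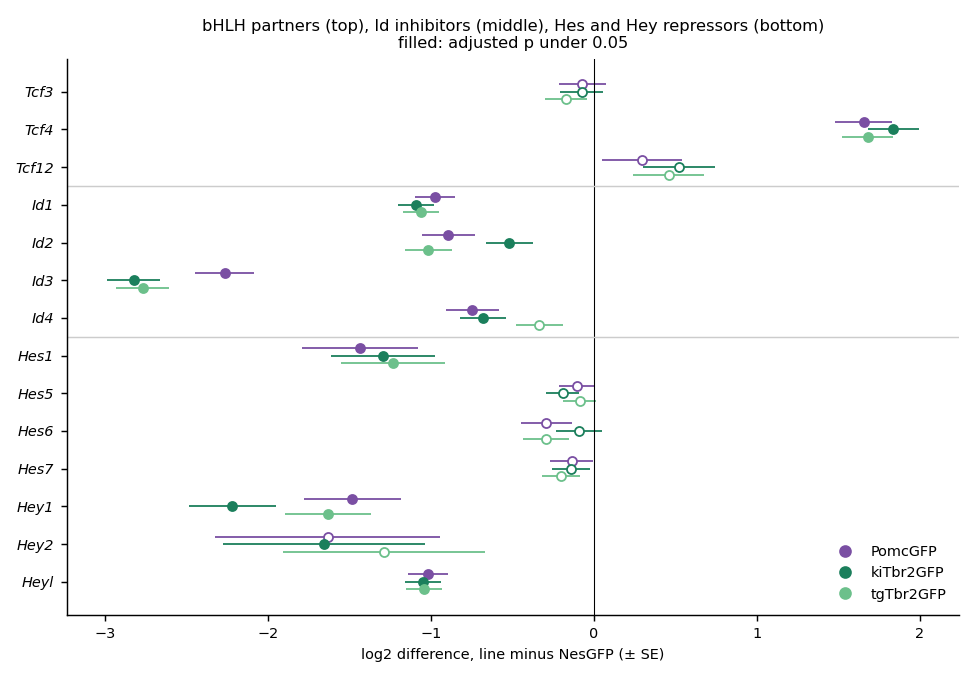
Log2 difference from NesGFP (x axis, ± SE) of the E protein, Id, and Hes and Hey genes (y axis, top to bottom) in PomcGFP, kiTbr2GFP and tgTbr2GFP. Filled points passed at an adjusted p under 0.05. Tcf4 lies at 1.66 to 1.84 in the 3 lines, and Id3 at -2.82 to -2.27.

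Of 25 genes listed as downstream of proneural factors in forebrain or other neural tissue, 8 were higher and 4 lower in PomcGFP than in NesGFP, where 15.9% of all genes were higher and 24.0% lower. In kiTbr2GFP 14 were higher and 2 lower (18.2% and 27.0% of all genes), and in tgTbr2GFP 13 were higher and 2 lower (15.8% and 25.8%). The list medians were 0.23, 0.46 and 0.51, against 0.0050, -0.01 and -0.03 for all genes. Slc17a6, the vesicular glutamate transporter VGLUT2, was at 1.93, 2.92 and 3.62, while Elavl4, which binds RNA in neurons, was at 0.23, 2.88 and 2.39, of which the PomcGFP value did not pass. Dcx, the microtubule protein of migrating neuroblasts, was at 2.01, 2.51 and 2.19. Rnd2, a small GTPase that is a Neurog2 target in mouse cortex, went the other way at -1.23, -1.26 and -1.06, and so did Gadd45g at -1.08, -0.90 and -1.07. Dll1, a Notch ligand and proneural target, did not pass (-0.21, -0.08 and -0.21). In PomcGFP 0 of the 25 were higher and 4 lower than in kiTbr2GFP, among them Elavl4 (-2.65) and Elavl2 (-1.18). Against tgTbr2GFP 0 were higher and 3 lower, among them Elavl4 (-2.15) and Slc17a6 (-1.68). Of all genes, 1.98% and 0.823% were lower in these comparisons. Between the Tbr2 lines 0 of 25 passed, near the 1.12% of all genes that did.

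Of 10 genes listed as downstream of Tbr1, 5 were higher and 2 lower in PomcGFP than in NesGFP (15.9% and 24.0% of all genes). In kiTbr2GFP 5 were higher and 1 lower (18.2% and 27.0%), and in tgTbr2GFP 7 were higher and 2 lower (15.8% and 25.8%). The list medians were 0.35, 0.56 and 0.63, against 0.0050, -0.01 and -0.03 for all genes. Auts2, a Tbr1 target in mouse cortex, was at 1.88, 2.04 and 1.84, and Grin2b, an NMDA receptor subunit, at 2.75, 1.73 and 1.99. Bcl6 was at -0.75, -1.44 and -1.0. Fezf2, which Tbr1 represses in cortical neurons, was at -0.50, -0.12 and -0.39, of which the kiTbr2GFP value did not pass. Reln, the secreted protein reelin, was at 0.18, 2.39 and 3.20, and the PomcGFP value did not pass. It was lower in PomcGFP by -2.21 against kiTbr2GFP and by -3.01 against tgTbr2GFP, whereas Grin2b was higher by 1.02 and 0.76 in those comparisons.

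Reln also marks Cajal-Retzius cells, early-born neurons of the hippocampal fissure that express Eomes, Tbr1 and Nhlh2 as well, and a list of 12 genes of these cells stood higher in the Tbr2 lines than in PomcGFP, as Eomes did. Against NesGFP, 0 of the 12 passed in PomcGFP (list median -0.07), where Eomes was lower and 39.9% of all genes passed. In kiTbr2GFP 7 were higher (18.2% of all genes) and in tgTbr2GFP 8 (15.8%). In PomcGFP 4 were lower than in kiTbr2GFP (1.98% of all genes) and 5 lower than in tgTbr2GFP (0.823%). The mean level of the list was 7.06 to 7.27 on the PomcGFP arrays, 7.93 to 7.96 in kiTbr2GFP, 8.01 to 8.61 in tgTbr2GFP and 7.08 to 7.41 in NesGFP. Ndnf stood at -2.63 and -3.57 in PomcGFP against kiTbr2GFP and tgTbr2GFP, and Trp73, which defines these cells in hippocampus, at -0.18 and -0.33 without passing. Trp73 was higher than in NesGFP by 0.59 in kiTbr2GFP (limma adjusted p = 0.00529) and by 0.74 in tgTbr2GFP (adjusted p = 0.00134), while PomcGFP stood at 0.41 (adjusted p = 0.0594). The part of these cells in the Eomes, Tbr1 and Nhlh2 values was not tested.

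Markers of dividing cells were lower in PomcGFP than in the Tbr2 lines, as Neurog2, Neurod4 and Nhlh1 were. Of 19 such genes 16 were lower in PomcGFP than in kiTbr2GFP (1.98% of all genes) and 9 lower than in tgTbr2GFP (0.823%). In kiTbr2GFP 8 were higher than in tgTbr2GFP (0.436%), with 0 the other way in each comparison. The mean level of the list was 7.05 to 7.09 in PomcGFP, 8.58 to 8.74 in kiTbr2GFP, 7.78 to 7.91 in tgTbr2GFP and 7.45 to 7.67 in NesGFP. Against NesGFP 2 of the 19 were higher and 11 lower in PomcGFP, where 15.9% of all genes were higher and 24.0% lower. In kiTbr2GFP 9 were higher and 0 lower (18.2% and 27.0% of all genes), and in tgTbr2GFP 6 were higher and 2 lower (15.8% and 25.8%). The list median was -0.71, 0.34 and -0.17 in that order, so mean and median differ in sign for tgTbr2GFP. Of 11 mature neuron genes 8 were higher in PomcGFP than in kiTbr2GFP (2.90% of all genes) and 1 higher than in tgTbr2GFP (0.545%), with 0 lower. In kiTbr2GFP 0 were higher and 2 lower than in tgTbr2GFP (0.684% of all genes lower). The mean of this list was 9.92 to 10.12 in PomcGFP, 8.52 to 8.69 in kiTbr2GFP, 9.09 to 9.59 in tgTbr2GFP and 8.53 to 8.89 in NesGFP. Glial and endothelial markers moved in PomcGFP against kiTbr2GFP too, where 2.90% of all genes were higher. Of 8 microglia genes 4 were higher (list mean 7.56 on both PomcGFP arrays, against 6.73 to 6.92 in kiTbr2GFP). So were 3 of 7 oligodendrocyte precursor genes, 2 of 8 oligodendrocyte genes, 2 of 10 astrocyte genes and 2 of 9 endothelial genes. In PomcGFP against tgTbr2GFP 0 genes of these lists passed, near the 1.37% of all genes that did. The list medians there were 0.46, 0.21, 0.89, -0.06 and 0.34 in the same order. The part of these lists in the bHLH differences was not tested.

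**Figure D4:**
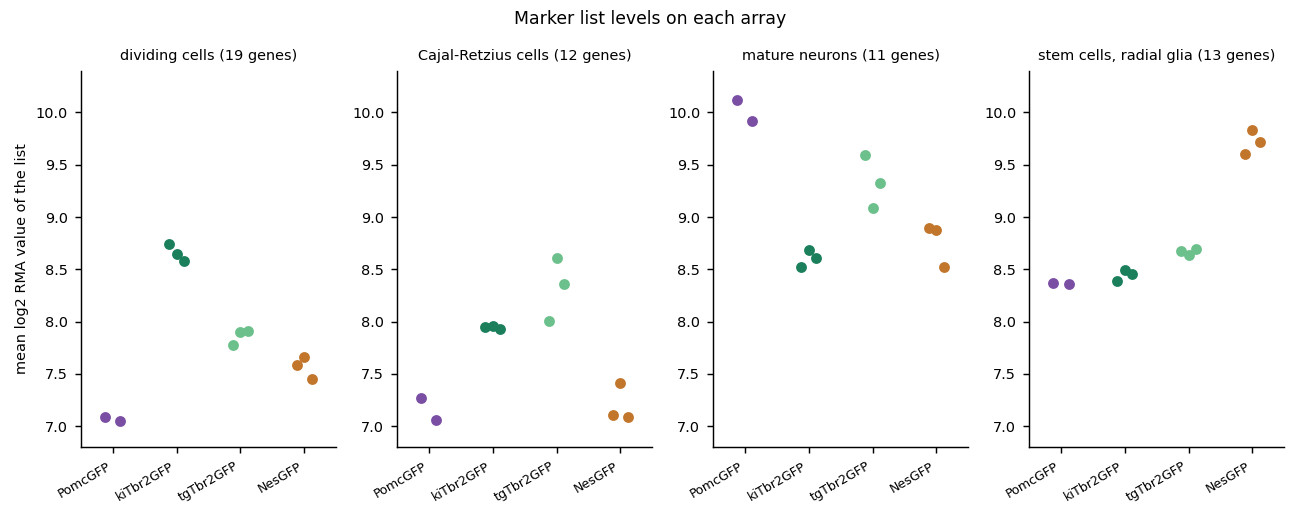
Mean log2 RMA value (y axis) of 4 marker lists on each array (points) in PomcGFP, kiTbr2GFP, tgTbr2GFP and NesGFP. Dividing-cell genes are highest in kiTbr2GFP (8.58 to 8.74) and lowest in PomcGFP (7.05 to 7.09), Cajal-Retzius cell genes are highest in the Tbr2 lines, mature neuron genes in PomcGFP, and stem cell and radial glia genes in NesGFP.

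The 3 genes whose levels over the 11 arrays were most like those of Neurog2 were Top2a (Pearson r = 0.978), Kif15 (0.965) and Hmgb3 (0.960), for Nhlh1 Top2a (0.969), Rbl1 (0.968) and Hmgb3 (0.966), and for Neurod4 Cenpf (0.985), Top2a (0.971) and Gas2l3 (0.969). Top2a, the DNA topoisomerase of dividing cells, was thus among the 3 closest genes of each of these members, and over the 8 arrays without NesGFP its r was 0.979 with Neurog2, 0.981 with Nhlh1 and 0.996 with Neurod4. For Eomes the closest genes were Ptx3 (0.954), Snrpe (0.906) and Zfp462 (0.905), none of them a dividing-cell gene of the list. For Tbr1 they were Kdm6a (0.990), Sclt1 (0.985) and Chd6 (0.984), and for Neurod1 Nfib (0.996), Tasor2 (0.994) and Rsf1 (0.993). For Neurod6 they were Eif4e3 (0.988), Tube1 (0.987) and Taf1b (0.976), for Neurod2 Lmtk3 (0.970), Eid1 (0.935) and Adgrg3 (0.935), and for Nhlh2 Olfr1265 (0.955), Gas2 (0.947) and Defa39 (0.944). These correlations are descriptions over 11 arrays that share 4 lines. Without the NesGFP arrays the r of the listed genes was 0.858 to 0.931 for Tbr1, 0.772 to 0.865 for Neurod1, 0.813 to 0.925 for Neurod6 and 0.818 to 0.852 for Nhlh2.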

How the data were processed

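Sorted GFP-positive cells of the dentate gyrus gave the RNA, which was amplified for the arrays, per the labels' protocols. The deposited log2 values were made by the authors with RMA in oligo, per the submitters' processing notes (no version named), and the range of the values fits that log2 scale. Of 28858 probe sets 21789 had a single symbol, and 21698 of these matched RefSeq by Entrez number. Probe sets above the 25th percentile of the array on at least 2 arrays were kept, and the one with the highest mean stood for a gene. One limma 3.58.1 fit (R 4.3.3) held the means of the 4 lines over the 11 arrays, with 7 residual and 4.22 prior degrees of freedom, so PomcGFP (2 arrays) borrowed its spread from the other lines. Tests were two-sided, and the threshold was an adjusted p of 0.05 over 16527 genes (Benjamini-Hochberg). The number of arrays limits the precision. The fit was also run on simulated data, drawn once per setting, where it missed the smallest differences simulated. It made false calls above the nominal rate there in some comparisons. Far fewer genes differed in the simulated data than between NesGFP and the other lines. The outcome thus cannot say how small a difference could pass in the real data.

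Genes named are the 9 members; up to 2 higher and 2 lower genes past the test of each list and comparison, by size, or all genes of a list of 7 or fewer, and their values in the other comparisons; the 3 genes most like each member by Pearson r; and label checks. Dll1, Trp73, Tbx1, Neurog1, Neurog3 and Atoh1 were named after their values were seen. The members and lists were chosen with earlier results of these data known. Alternatives were other filters, probe set means, cyclic loess, median centring, an intensity trend with a robust prior, a block for the replicate number, leaving out each array, and fits that held only the compared lines. Deviations from the line means correlated above 0.1 in 4 of 15 same-numbered pairs of arrays of different lines (highest r 0.262). Among other-numbered pairs this held for 2 of 30 (highest r 0.124). The main fit did not pair arrays by number, and whether the numbers mark a shared batch was not tested. Promoter windows were read from RefSeq with Python 3.11.15.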

Additional observations from a re-analysis of the deposited data

How the results depend on the processing

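Of 30 member differences past the test, 0 changed direction in 570 refits and 539 refits kept the call; the 24 other differences gained a call in 7 of 456 refits. Among these, the differences that changed sign when 1 array was left out were small in the full fit, and their ranges were -0.074 to 0.11 for Neurod1, -0.023 to 0.093 for Neurod2 and -0.21 to 0.028 for Tbr1 in kiTbr2GFP against tgTbr2GFP, -0.49 to 0.22 for Neurod4 in PomcGFP against NesGFP, and -0.23 to 0.13 for Neurod6 in PomcGFP against tgTbr2GFP. A fit of the compared lines alone gave 1246 genes in place of 807 for PomcGFP against kiTbr2GFP, and 143 in place of 226 with 2 members in place of 4 for PomcGFP against tgTbr2GFP. Leaving out 1 array at a time gave 6234 to 8106 genes and 7 to 8 members for kiTbr2GFP against NesGFP, 5862 to 7405 and 6 to 8 for tgTbr2GFP against NesGFP, and 4453 to 7369 and 4 to 6 for PomcGFP against NesGFP. It gave 364 to 1044 genes and 4 to 4 members for PomcGFP against kiTbr2GFP, 38 to 335 and 1 to 4 for PomcGFP against tgTbr2GFP, 68 to 260 and 0 to 2 for kiTbr2GFP against tgTbr2GFP, and 6374 to 7612 and 7 to 8 for the F test. With 1 PomcGFP array left out, the other was assumed to vary like the other lines. The cause was not tested. The replicate number as a replicate block gave 673 genes for PomcGFP against kiTbr2GFP, 152 for PomcGFP against tgTbr2GFP and 147 in place of 185 for kiTbr2GFP against tgTbr2GFP; every member call was kept and Neurod2 was gained in PomcGFP against NesGFP (0.29, adjusted p = 0.0482).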

Other observations

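A list of 14 tested genes of the granule neuron lineage went in both directions. Against NesGFP, 4 were higher and 4 lower in PomcGFP (15.9% and 24.0% of all genes). In kiTbr2GFP 5 were higher and 2 lower (18.2% and 27.0%), and in tgTbr2GFP 5 were higher and 2 lower (15.8% and 25.8%). The list medians against NesGFP were -0.02, 0.14 and -0.02, where those of all genes were 0.0050, -0.01 and -0.03. Prox1, the granule cell fate factor, was higher than in NesGFP by 1.85, 1.67 and 1.55 in that order, and its differences among these lines did not pass. Pax6, which acts upstream of Neurog2 and Eomes in mouse cortex, was at -0.46, 0.65 and 0.44 against NesGFP, and was lower in PomcGFP than in kiTbr2GFP (-1.11, limma adjusted p = 0.00161) and than in tgTbr2GFP (-0.91, adjusted p = 0.0167). Calb1 (calbindin), which mature granule neurons express, was the 1 gene of the list that was higher in PomcGFP than in either Tbr2 line, by 2.82 and 1.74.

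Of 15 further T-box genes 9 were tested. Against NesGFP, 1 was higher and 0 lower in PomcGFP, 2 higher and 1 lower in kiTbr2GFP, and 1 higher and 3 lower in tgTbr2GFP, where 39.9%, 45.2% and 41.6% of all genes passed in either direction. Mga, a protein with both a T-box and a bHLH domain, was higher by 2.03 in PomcGFP, 2.21 in kiTbr2GFP and 2.33 in tgTbr2GFP. Tbx6 was higher in kiTbr2GFP (0.27). Tbx3 was lower in kiTbr2GFP (-0.57) and tgTbr2GFP (-0.50), and Tbx2 (-0.44) and Tbx1 (-0.40) were lower in tgTbr2GFP. Of 15 further neural bHLH genes 11 were tested, and 0 were higher than in NesGFP in any line. In PomcGFP 2 were lower, in kiTbr2GFP 3 and in tgTbr2GFP 3. Of all genes, 24.0%, 27.0% and 25.8% were lower in that order, so the lower counts were near those shares. The shares of all genes that were higher were 15.9%, 18.2% and 15.8%. Olig1 (-1.67, -2.56 and -2.05) and Olig2 (-2.11, -2.38 and -2.18), factors of the oligodendrocyte lineage, were lower in PomcGFP, kiTbr2GFP and tgTbr2GFP, and Atoh7 was lower in kiTbr2GFP (-0.35) and tgTbr2GFP (-0.36). Neurog1, Neurog3 and Atoh1 passed in none of the 6 comparisons.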
